A study of Mus musculus with 10 samples.

Results

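Chemokines are small secreted proteins that bind G protein-coupled receptors on leukocytes and set the direction in which these cells move. Ligands are grouped by the spacing of their first cysteines into CC, CXC and CX3C families, and several ligands commonly share a receptor. Complement fragments, formyl peptides, chemerin and sphingosine-1-phosphate attract leukocytes through related receptors. In the spleen such signals place lymphocytes, dendritic cells and macrophages, and ligands made by a tumour can draw in or keep out T and NK cells.

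The genes described here are 39 chemokine and chemoattractant receptor genes, chosen by symbol from the 38215 genes of the deposited table, and all 39 were found there. They comprise 10 CC ligands, 9 CXC or CX3C ligands, 12 chemokine receptors and 8 other receptors. RNA-seq had been made from GFP+ cells of the spleen of mice with acute myeloid leukaemia (AML). The leukaemia was started by retroviral transfer (MSCV-IRES-GFP) of AML1-ETO and mutant Nras (Nras G12D) into lineage-depleted bone marrow cells, so all groups carry both oncogenes and GFP. A first passage took place in Rag2-/-γc-/- hosts, whose T, B and NK lineages do not form, and GFP+ cells of their spleens were then given to second recipients. The compared groups are AML from 5 Rag2-/-γc-/- second recipients (numbered 7 to 11) and AML from 5 immunocompetent C57BL/6J second recipients (numbered 1, 3, 4, 5 and 6). Both groups therefore share the first passage without lymphocytes. Age, sex and time to disease are not given in the labels. Nor is the number of first leukaemias, so a p-value refers only to the spread among recipients, which may share a leukaemia.

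Levels are given as CPM, the count of a gene divided by the library total and set to a common depth, after scaling by TMM, a factor per library that balances composition. Libraries held 28157774 to 62461139 expected counts in the Rag2-/-γc-/- group and 32703965 to 44097690 in the C57BL/6J group. A level of 0 CPM allows up to 3 counts, or 0.0509 to 0.109 CPM depending on the library, for counting error only. Some libraries stood apart across the 39 genes: Rag2-/-γc-/- library 7 was the highest of all 10 for 11 genes, library 8 for 9 and C57BL/6J library 1 for 9, whereas Rag2-/-γc-/- libraries 10 and 11 were highest for 2 and 3. Over all genes, chi-square per degree of freedom was 8.64 to 41.6 between Rag2-/-γc-/- libraries 7, 8 and 9, 30.7 between 10 and 11, and 80.3 to 203 across these subsets. It was 109 to 150 between C57BL/6J library 1 and the others of its group, and 16.6 to 48.0 among the others. Mitochondrial genes took 1.34% of counts in C57BL/6J library 1 and at least 2.91% in each of the other 9 libraries. Of the marker lists for myeloid cells, the 11 dendritic cell markers, which include Ccr9, summed to 3508 to 5101 CPM in Rag2-/-γc-/- libraries and 5319 to 6452 CPM in C57BL/6J libraries. Most of this was Irf8 and Wdfy4, which averaged 1306 and 1804 CPM in Rag2-/-γc-/- libraries and 1990 and 2087 CPM in C57BL/6J libraries. Of the 9 markers tested, only Flt3 passed the edgeR threshold used below, and it was lower in Rag2-/-γc-/- libraries. Cd209a, not tested, averaged higher there (0.341 against 0.123 CPM). The 9 neutrophil markers summed to 5.06 to 28.5 CPM in Rag2-/-γc-/- libraries and 3.67 to 27.7 CPM in C57BL/6J libraries. In such bulk samples, fewer cells of a type and less RNA per cell cannot be told apart.

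The repertoire was dominated by a few genes. Per kilobase of exon, which allows levels of different genes to be compared, Ccr1 led with a mean of 84.3 CPM per kb in Rag2-/-γc-/- libraries and 66.6 CPM per kb in C57BL/6J libraries. Ccr1 encodes a receptor for Ccl3, Ccl5 and related CC ligands on myeloid cells. Cxcl16, a membrane-bound ligand of Cxcr6, followed at 46.6 and 46.5 CPM per kb. Cxcr3, the receptor of Cxcl9, Cxcl10 and Cxcl11, had 35.6 and 37.4 CPM per kb. Next came Ccl6 (42.5 and 19.3 CPM per kb), Ccl22 (25.9 and 22.8 CPM per kb), Cxcl9 (11.6 and 27.3 CPM per kb) and Cxcr4 (14.0 and 16.3 CPM per kb). In the order by the mean of all libraries, each step from Cxcr3 through Ccl6, Ccl22 and Cxcl9 to Cxcr4 was smaller than the SD of the higher gene over the 10 libraries. At the other end, 12 of the 39 genes averaged under 1 CPM. The filter on low counts left 6 genes untested, namely Cxcl1, Cxcl3, Cxcl11, Cxcl12, Ccr7 and S1pr1.

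The comparison of second recipients asks how growth in the absence or presence of lymphocytes bears on the leukaemia's expression. Ligands accounted for most changes: Ccl3, Ccl4, Ccl24, Cxcl2 and Cxcl10 were higher in AML from Rag2-/-γc-/- recipients, and Ccl5 and Cxcl9 were lower. Among receptors, C3ar1 was higher and Cxcr5 and Cxcr6 were lower. Of the 33 genes tested, 6 were higher and 4 lower in edgeR's test of counts, at a p under 0.05 after Benjamini-Hochberg adjustment, where 4.47% and 3.32% of all 13967 tested genes were called in these directions. The groups did not overlap in 7 of the 33 (8.5% of all tested genes), with 4 higher (4.37%) and 3 lower (4.13%). A low gene can enter the test through the group where it is high, so these counts describe the 33 and not all 39. The median log2 fold change (Rag2-/-γc-/- minus C57BL/6J) was 0.36 over the 33 genes and -0.0038 over all tested genes. By role, 7 of 15 tested ligands and 3 of 18 tested receptors were called. The counts depend on the libraries: without Rag2-/-γc-/- libraries 7, 8 and 9 edgeR called 0 genes higher and 1 lower of 36 tested (5 and 8 at an unadjusted p under 0.05), the last being Cxcl9. Without libraries 10 and 11 it called 11 higher and 5 lower of 35 tested. Both subsets were chosen after the data were seen.

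The CXC ligands of chromosome 5 are shown first by sequence, because the 3 of them that could be tested were all called and went in both directions. Each window is the 250 bases before the RefSeq transcription start (GRCm38.p6), read along the gene's strand. Capitals mark the motifs searched on both strands: the interferon-stimulated response element GAAANNGAAA, the STAT site TTCNNNGAA and the κB consensus. TATAAA, searched on the gene's strand, is in capitals as well. Cxcl10 (chr5:92348890-92349139, minus strand), Cxcl9 (chr5:92328080-92328329, minus strand) and Cxcl2 (chr5:90903649-90903898, plus strand) read as follows.
Cxcl10: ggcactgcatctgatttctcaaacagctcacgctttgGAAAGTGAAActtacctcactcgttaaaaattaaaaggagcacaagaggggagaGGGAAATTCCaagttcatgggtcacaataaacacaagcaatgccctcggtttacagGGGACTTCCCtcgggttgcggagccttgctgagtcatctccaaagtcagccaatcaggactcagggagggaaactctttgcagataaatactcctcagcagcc
Cxcl9: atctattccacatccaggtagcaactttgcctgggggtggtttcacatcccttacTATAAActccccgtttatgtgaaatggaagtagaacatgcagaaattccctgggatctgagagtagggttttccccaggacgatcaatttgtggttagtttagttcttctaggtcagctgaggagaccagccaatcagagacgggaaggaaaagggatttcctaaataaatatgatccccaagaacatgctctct
Cxcl2: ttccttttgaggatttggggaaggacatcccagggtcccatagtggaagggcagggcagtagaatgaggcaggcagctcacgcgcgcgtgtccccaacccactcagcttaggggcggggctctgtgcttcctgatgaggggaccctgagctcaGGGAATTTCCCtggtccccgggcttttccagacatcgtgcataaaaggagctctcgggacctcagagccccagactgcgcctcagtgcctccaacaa
The Cxcl10 window holds 1 interferon-stimulated response element, which begins 213 bases before the start, and 2 κB matches at 159 and 103 bases. The Cxcl9 window holds only TATAAA among these motifs. The Cxcl2 window holds 2 overlapping κB matches, which begin 97 and 96 bases before the start. Among all 32851 windows of the same length, 2.98% hold the interferon-stimulated response element, 7.02% the STAT site, 3.9% the κB consensus and 7.59% TATAAA. For 29 of the 39 genes windows were found, 32 in all. A κB match was present for 8 of the 29, the interferon-stimulated response element for 1 and the STAT site for 3. A gene with several windows counted if any of them held the motif, so these counts of genes differ in unit from the shares of windows. These matches describe letters in the window and not bound sites.

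Cxcl9 and Cxcl10 are neighbouring genes, both known as interferon-induced ligands of Cxcr3 that attract activated T and NK cells. Cxcl9 (chromosome 5, 92321331 to 92328079, GRCm38, protein-coding) had 35.3, 47.4, 44.7, 24.2 and 23.5 CPM in Rag2-/-γc-/- libraries 7 to 11, against 54.1, 61.9, 84.4, 107 and 105 CPM in C57BL/6J libraries 1, 3, 4, 5 and 6. Every Rag2-/-γc-/- value lay under every C57BL/6J value. Its log2 fold change was -1.23 ± 0.25 (SE; edgeR adjusted p = 0.0133), and it was past the threshold when any 1 library was left out (highest edgeR adjusted p 0.0379, which is also the highest of 18 alternatives, the lowest being 6.31e-05). Cxcl10 (chromosome 5, 92346638 to 92348889) had 6.2, 8.73, 6.7, 4.61 and 4.73 CPM in Rag2-/-γc-/- libraries 7 to 11, against 3.97, 1.9, 4.09, 2.52 and 1.51 CPM in C57BL/6J libraries 1, 3, 4, 5 and 6. Here the Rag2-/-γc-/- values were the higher ones, again without overlap. The log2 fold change was 1.15 ± 0.30 (SE; edgeR adjusted p = 0.0379). The Cxcl10 call was lost without any 1 of 6 libraries (Rag2-/-γc-/- 7, 8 or 9, C57BL/6J 3, 5 or 6; adjusted p 0.0725 to 0.1), and its adjusted p ran from 0.00102 to 0.478 over 18 alternatives. Values of Cxcl10 were not whole in 4 libraries, so some of its reads were shared with other genes. It overlaps Art3 on the opposite strand, which averaged 0.0605 CPM in Rag2-/-γc-/- libraries and 0.0566 CPM in C57BL/6J libraries.

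The ratio of Cxcl9 to Cxcl10 CPM was 5.69, 5.43, 6.67, 5.25 and 4.97 in Rag2-/-γc-/- libraries 7 to 11, against 13.6, 32.6, 20.7, 42.3 and 69.3 in C57BL/6J libraries 1, 3, 4, 5 and 6. The ratios lay close together in the Rag2-/-γc-/- group and were more spread in the C57BL/6J group. That they do not overlap follows from the values of the genes themselves. Cxcl11, the other Cxcr3 ligand, is annotated as a polymorphic pseudogene and was at or under 0.252 CPM in all 10 libraries. The receptor gene Cxcr3 (chromosome X, 101731535 to 101734269) had 39.1, 58.1, 68.8, 77.6 and 64.3 CPM in Rag2-/-γc-/- libraries, against 51.8, 62.3, 56.6, 76.7 and 76.6 CPM in C57BL/6J libraries. These ranges overlap and Cxcr3 was not past the threshold (log2 fold change -0.07 ± 0.18, SE; edgeR adjusted p = 0.807). Summed markers of T cells, which include Cd4 and Cd8a (also found on dendritic cells), were 18.0 to 44.0 CPM in Rag2-/-γc-/- libraries and 63.1 to 115.9 CPM in C57BL/6J libraries. Most of this was Cd8a, which averaged 28.9 and 71.0 CPM in these groups. Summed NK cell markers were 10.8 to 28.9 and 32.3 to 43.8 CPM, mostly from Klrd1 (means 12.9 and 18.3 CPM) and Klrk1 (5.05 and 14.1 CPM). Klrb1c alone averaged higher in Rag2-/-γc-/- libraries (2.07 against 0.809 CPM), and 6 of the 9 NK cell markers averaged under 1 CPM. Ncr1, Gzma, Gzmb and Nkg7 had 0 counts in every Rag2-/-γc-/- library, against 15, 93, 150 and 184 counts over the C57BL/6J libraries. Klrk1 and Nkg7 were past the threshold, both lower in Rag2-/-γc-/- libraries (edgeR adjusted p 0.0154 and 0.0114), while Klrb1c and Klrd1 were not. The part of these cells in the Cxcl9 and Cxcl10 values was not tested.

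Cxcl2 belongs to the neutrophil-attracting ligands of Cxcr2, together with Cxcl1 and Cxcl3. Cxcl2 (chromosome 5, 90903899 to 90905909) had 11.8, 3.12, 2.79, 0.784 and 1.59 CPM in Rag2-/-γc-/- libraries 7 to 11, against 0.397, 0.42, 1.29, 0.196 and 0.101 CPM in C57BL/6J libraries 1, 3, 4, 5 and 6. Library 7 stood far above the rest, and library 10 lay under C57BL/6J library 4. The log2 fold change was 3.07 ± 0.80 (SE; edgeR adjusted p = 0.038), and 2.11 without library 7. The call was lost without any 1 of 7 libraries (all but Rag2-/-γc-/- 10 and 11 and C57BL/6J 4; adjusted p 0.0671 to 0.0916), with a range of 0.000518 to 0.573 over 18 alternatives. Cxcl1 and Cxcl3 summed to 36 and 10 counts over the Rag2-/-γc-/- libraries, against 3 and 3 over the C57BL/6J libraries, and were not tested. Because close paralogs share reads, values for Cxcl2 and Cxcl3, each with values that were not whole in 3 libraries, depend on how the authors' software divided them. The receptor gene Cxcr2 was at most 0.79 CPM in any library (log2 fold change 0.29 ± 0.52, SE; edgeR adjusted p = 0.745).

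Among the CC ligands, Ccl3 and Ccl4 stood side by side in the genome and in the data. They encode the macrophage inflammatory proteins, and Ccl3 is a ligand of Ccr1. Ccl3 (chromosome 11, 83647844 to 83649355) had 8.75, 4.24, 5.03, 4.08 and 4.43 CPM in Rag2-/-γc-/- libraries 7 to 11, against 2.17, 1.26, 2.13, 0.935 and 0.201 CPM in C57BL/6J libraries 1, 3, 4, 5 and 6. Ccl4 (chromosome 11, 83662584 to 83664683) had 5.31, 3.88, 3.84, 3.1 and 3.24 CPM in Rag2-/-γc-/- libraries, against 1.89, 1.36, 1.37, 0.696 and 0.302 CPM in C57BL/6J libraries. Neither gene's groups overlapped, and C57BL/6J library 6 was the lowest for both. The log2 fold change of Ccl3 was 1.99 ± 0.48 (SE; edgeR adjusted p = 0.0286), and that of Ccl4 was 1.79 ± 0.39 (SE; edgeR adjusted p = 0.0187). The Ccl4 call held without any 1 library (adjusted p up to 0.0474; 0.000133 to 0.257 over 18 alternatives). That of Ccl3 was lost without any 1 of Rag2-/-γc-/- 7, 8 and 9 and C57BL/6J 3 and 5 (adjusted p 0.0509 to 0.0705; 0.000516 to 0.283 over 18 alternatives).

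Ccl24, an eosinophil attractant that signals through Ccr3, had the highest log2 fold change of the set at a low level. Ccl24 (chromosome 5, 135569937 to 135573043) had 1.08, 2.6, 0.905, 0.425 and 0.784 CPM in Rag2-/-γc-/- libraries 7 to 11, against 0.0305, 0, 0.152, 0.0653 and 0 CPM in C57BL/6J libraries 1, 3, 4, 5 and 6. It amounted to 243 counts in the Rag2-/-γc-/- group and 10 in the C57BL/6J group, with no overlap. Its log2 fold change was 4.46 ± 0.76 (SE; edgeR adjusted p = 0.00472). It ranged from 3.92 without Rag2-/-γc-/- library 8 to 5.38 without C57BL/6J library 4, always past the threshold when 1 library was left out (adjusted p up to 0.0141; 5.65e-07 to 0.0957 over 17 alternatives). Ccr3 itself averaged 1.26 ± 0.575 CPM in Rag2-/-γc-/- libraries and 0.453 ± 0.381 CPM in C57BL/6J libraries (SD, n = 5 each), a difference not past the edgeR threshold (adjusted p = 0.125). Eosinophil, basophil and mast cell markers were under 1 CPM on average in 7 of 8 genes, Siglecf being the exception. Fcer1a, a subunit of the IgE receptor on this list, averaged 0.811 CPM in Rag2-/-γc-/- libraries and 0.116 CPM in C57BL/6J libraries without overlap (edgeR adjusted p = 0.0156), while Prg2, Epx, Mcpt8, Cpa3 and Ms4a2 were each at most 0.142 CPM in any library. Il5ra went the other way, at 0 CPM in every Rag2-/-γc-/- library and up to 0.275 CPM in C57BL/6J libraries. Siglecf averaged 66.3 CPM in Rag2-/-γc-/- libraries and 77.2 CPM in C57BL/6J libraries (edgeR adjusted p = 0.182). The part of such cells in the Ccl24 and Ccr3 values was not tested.

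Ccl5, a product of T and NK cells and other leukocytes that binds Ccr1 and Ccr3, was the CC ligand that fell. It (chromosome 11, 83525778 to 83530518) had 0.627, 0.663, 1.23, 0.523 and 0.177 CPM in Rag2-/-γc-/- libraries 7 to 11, against 6.29, 4.27, 1.62, 0.957 and 1.41 CPM in C57BL/6J libraries 1, 3, 4, 5 and 6. The groups overlapped through Rag2-/-γc-/- library 9 and C57BL/6J library 5. For Ccl5 the log2 fold change was -2.18 ± 0.59 (SE; edgeR adjusted p = 0.0447) and -1.70 without C57BL/6J library 1. The call was lost without any 1 of 8 libraries (all but Rag2-/-γc-/- 10 and C57BL/6J 5; adjusted p 0.0504 to 0.0997), with a range of 0.00239 to 0.176 over 18 alternatives.

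The other 6 CC ligands were not past the threshold, although their log2 fold changes were all positive (0.19 to 1.41). Ccl6, a myeloid chemokine of mice and a ligand of Ccr1, had 90.5, 122, 101, 25.3 and 42.4 CPM in Rag2-/-γc-/- libraries 7 to 11, against 46.1, 47.6, 38.7, 23.2 and 17.6 CPM in C57BL/6J libraries 1, 3, 4, 5 and 6. Its neighbour Ccl9, likewise a Ccr1 ligand, had 21, 28.8, 17.9, 2.97 and 7.89 CPM in Rag2-/-γc-/- libraries, against 14.1, 3.16, 9.06, 3.07 and 0.226 CPM in C57BL/6J libraries. For both, libraries 7, 8 and 9 were above all others and libraries 10 and 11 lay within the C57BL/6J range. Ccl6 had an edgeR adjusted p of 0.117 and passed in DESeq2 (adjusted p = 0.0337), with a range of 0.00209 to 0.988 over its alternatives, the highest without libraries 7, 8 and 9. Ccl22, made by dendritic cells and a ligand of Ccr4 on regulatory T cells, had 116, 62.4, 69.2, 20.4 and 32.9 CPM in Rag2-/-γc-/- libraries, against 47.9, 59.1, 53.1, 34.7 and 69.9 CPM in C57BL/6J libraries. The Rag2-/-γc-/- range thus enclosed that of the C57BL/6J group, and the edgeR adjusted p was 0.776. Ccl17, the other Ccr4 ligand, averaged 1.46 ± 1.18 CPM in Rag2-/-γc-/- libraries and 0.737 ± 0.598 CPM in C57BL/6J libraries (SD, n = 5 each). The monocyte attractants Ccl2 and Ccl7, ligands of Ccr2, averaged 10.9 ± 4.28 and 3.32 ± 1.97 CPM in Rag2-/-γc-/- libraries, against 7.71 ± 5.85 and 1.95 ± 2.36 CPM in C57BL/6J libraries (SD, n = 5 each).

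The remaining tested ligands did not pass the threshold. Cxcl16 (chromosome 11, 70453983 to 70459984) had 181, 136, 153, 114 and 120 CPM in Rag2-/-γc-/- libraries 7 to 11, against 124, 115, 158, 135 and 170 CPM in C57BL/6J libraries 1, 3, 4, 5 and 6. Its ranges overlapped almost entirely (log2 fold change 0.0014 ± 0.15, SE; edgeR adjusted p = 0.996). Cxcl16 overlaps Zmynd15 on the opposite strand, and the labels do not say whether reads were counted by strand, so reads of this pair may not be told apart; Zmynd15 averaged 15.4 CPM in Rag2-/-γc-/- libraries and 52.6 CPM in C57BL/6J libraries. Cx3cl1, the membrane-bound ligand of Cx3cr1, averaged 14.2 ± 6.05 CPM in Rag2-/-γc-/- libraries and 9.88 ± 1.54 CPM in C57BL/6J libraries (SD, n = 5 each; edgeR adjusted p = 0.253). Cxcl12, the stromal ligand of Cxcr4, was left untested by the filter and was at most 0.751 CPM in any library. It averaged 0.356 CPM in Rag2-/-γc-/- libraries and 0.105 CPM in C57BL/6J libraries. Its log2 fold change was 1.73 without a filter (edgeR adjusted p = 0.127) and 2.54 without Rag2-/-γc-/- libraries 7, 8 and 9 (edgeR adjusted p = 0.0581). Stromal and endothelial markers summed to 0.784 to 1.70 CPM in Rag2-/-γc-/- libraries and 1.31 to 2.06 CPM in C57BL/6J libraries.

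Of the chemokine receptors, Cxcr6 and Cxcr5 were called, both lower. Cxcr6, the receptor of Cxcl16 on memory T and NKT cells, (chromosome 9, 123806477 to 123811754) had 0.203, 0.26, 0.471, 0.327 and 0.126 CPM in Rag2-/-γc-/- libraries 7 to 11, against 0.947, 1.58, 0.863, 0.631 and 0.604 CPM in C57BL/6J libraries 1, 3, 4, 5 and 6. The groups did not overlap, and the log2 fold change was -1.77 ± 0.39 (SE; edgeR adjusted p = 0.0193). The call was lost without Rag2-/-γc-/- library 7 or 8 (adjusted p 0.0541 and 0.0535; 0.00135 to 0.15 over 17 alternatives). Cxcr6 lies across from Fyco1 on the opposite strand, which averaged 31.9 CPM in Rag2-/-γc-/- libraries and 51.3 CPM in C57BL/6J libraries, and its part in the Cxcr6 values was not tested. Cxcr5, which guides B cells and follicular helper T cells to follicles, (chromosome 9, 44511788 to 44556391) had 0.288, 0.45, 0.29, 0.163 and 0.253 CPM in Rag2-/-γc-/- libraries, against 7.85, 1.36, 0.609, 0.5 and 1.84 CPM in C57BL/6J libraries. C57BL/6J library 1 was far above the other 4, which were still above every Rag2-/-γc-/- library. The log2 fold change was -3.03 ± 0.75 (SE; edgeR adjusted p = 0.0306), and -1.87 without C57BL/6J library 1, where the call held. It was lost without any 1 of Rag2-/-γc-/- libraries 7, 8 and 9 and C57BL/6J library 6 (adjusted p 0.0561 to 0.0762; 0.000257 to 0.271 over 17 alternatives).

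Other receptors of lymphocyte traffic were also highest in C57BL/6J library 1. Ccr7, which brings T cells and mature dendritic cells to lymphoid tissue, had at most 0.22 CPM among Rag2-/-γc-/- libraries, against 7.09, 1.11, 0.33, 0.087 and 0.83 CPM for the C57BL/6J libraries in the order 1, 3, 4, 5 and 6. S1pr1, the sphingosine-1-phosphate receptor for lymphocyte exit, had at most 0.142 CPM in Rag2-/-γc-/- libraries, against 7.36, 1.16, 0.406, 0.131 and 1.11 CPM in C57BL/6J libraries 1, 3, 4, 5 and 6. Both overlap between groups through C57BL/6J library 5. Neither gene passed the filter on low counts. Without that filter edgeR called both lower, Ccr7 at an adjusted p of 0.0429 and S1pr1 at 0.0156, where other alternatives that test them gave 0.0283 to 0.398 for Ccr7 and 0.0112 to 0.244 for S1pr1. S1pr4, a related lymphoid receptor, had 1.61, 1.61, 1.12, 0.947 and 0.683 CPM in Rag2-/-γc-/- libraries, against 6.29, 2.54, 1.5, 0.587 and 2.34 CPM in C57BL/6J libraries, with overlap (edgeR adjusted p = 0.193). Ccr6, a receptor of B cells and Th17 cells, was likewise highest in C57BL/6J library 1 (2.02 CPM) and at most 0.704 CPM elsewhere (edgeR adjusted p = 0.542). All 9 B cell markers summed to 60.2 to 162 CPM in Rag2-/-γc-/- libraries and 86.2 to 307 CPM in C57BL/6J libraries, with overlap. Most of this was Ighm, which averaged 100.3 CPM in Rag2-/-γc-/- libraries and 107.4 CPM in C57BL/6J libraries (edgeR adjusted p = 0.833). The markers other than Ighm, a selection made after their values were seen, summed to 2.44 to 3.95 CPM in Rag2-/-γc-/- libraries, against 139.8, 17.2, 5.58, 3.96 and 22.0 CPM in C57BL/6J libraries 1, 3, 4, 5 and 6. T cell markers other than Cd4 and Cd8a, selected likewise, summed to 1.21 to 1.61 CPM in Rag2-/-γc-/- libraries, against 40.0, 12.6, 5.53, 1.54 and 7.45 CPM in C57BL/6J libraries. Most of the Rag2-/-γc-/- sum was Lck, at 1.18 to 1.56 CPM there and 0.435 CPM in C57BL/6J library 5. Cd2, Cd8b1, Trac, Cd28 and Thy1 were at 0 CPM in every Rag2-/-γc-/- library and above 0 CPM in every C57BL/6J library. Within the C57BL/6J group, Cxcr5 and the summed B cell markers, with or without Ighm, put the libraries in the order 1, 6, 3, 4 and 5. Ccr7, S1pr1, S1pr4 and the T cell markers summed without Cd4 and Cd8a gave the order 1, 3, 6, 4 and 5. The sum of all 12 T cell markers gave another order, 6, 1, 5, 4 and 3. Ccl5 followed none of these sums, with the order 1, 3, 4, 6 and 5, and nor did Cxcr6, with the order 3, 1, 4, 5 and 6. The part of these cells in the values of Ccl5, Cxcr5, Cxcr6, Ccr7, S1pr1 and S1pr4 was not tested.

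Other receptors of myeloid cells did not pass the threshold. Ccr1 (chromosome 9, 123962126 to 123968692) had 281, 299, 258, 142 and 213 CPM in Rag2-/-γc-/- libraries 7 to 11, against 134, 259, 217, 155 and 179 CPM in C57BL/6J libraries 1, 3, 4, 5 and 6. Its ranges overlapped (log2 fold change 0.34 ± 0.22, SE; edgeR adjusted p = 0.34). Ccr2, which draws monocytes out of the marrow, averaged 3.15 ± 1.47 CPM in Rag2-/-γc-/- libraries and 5.64 ± 1.67 CPM in C57BL/6J libraries (SD, n = 5 each; edgeR adjusted p = 0.154). Among the alternatives, limma-voom and edgeR without Rag2-/-γc-/- libraries 10 and 11 called Ccr2 lower. Cxcr4, which retains blood cells in the marrow, averaged 25.4 ± 11.1 CPM in Rag2-/-γc-/- libraries and 29.4 ± 5.12 CPM in C57BL/6J libraries (SD, n = 5 each; edgeR adjusted p = 0.658). Cx3cr1, a receptor of monocytes and macrophages, ranged over 0.695 to 4.28 CPM among Rag2-/-γc-/- libraries and 0.126 to 3.45 CPM among C57BL/6J libraries (edgeR adjusted p = 0.741). Values of Ccr2 were not whole in any of the 10 libraries, so some of its reads were shared with other genes. The gut-homing receptor Ccr9 was at most 0.641 CPM and overlaps several other genes whose reads may not be told apart from its own.

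C3ar1, the receptor of complement fragment C3a, was the chemoattractant receptor that rose. C3ar1 (chromosome 6, 122847138 to 122856161) had 17.5, 27.1, 25.9, 24.4 and 27.9 CPM in Rag2-/-γc-/- libraries 7 to 11, against 12.2, 9.06, 18.8, 13.6 and 6.34 CPM in C57BL/6J libraries 1, 3, 4, 5 and 6. The groups touched only through Rag2-/-γc-/- library 7 and C57BL/6J library 4. The log2 fold change was 1.03 ± 0.25 (SE; edgeR adjusted p = 0.03), and it was 1.13 without libraries 7, 8 and 9, where the call was lost. It was also lost without any 1 of Rag2-/-γc-/- 8 and 9 and C57BL/6J 1, 3 and 5 (adjusted p 0.0529 to 0.0713; 0.00141 to 0.157 over 18 alternatives). C5ar1, the receptor of the complement fragment C5a, had 10.8, 11.4, 7.2, 4.41 and 11.5 CPM in Rag2-/-γc-/- libraries, against 9.59, 2.32, 6.12, 2.26 and 0.226 CPM in C57BL/6J libraries, with overlap (edgeR adjusted p = 0.277). Ccrl2, an atypical receptor that binds chemerin without signalling, averaged 14.4 ± 6.35 CPM in Rag2-/-γc-/- libraries and 7.81 ± 1.56 CPM in C57BL/6J libraries (SD, n = 5 each). It narrowly missed the edgeR threshold (log2 fold change 0.89 ± 0.26, SE; adjusted p = 0.0651) and passed it in DESeq2 (adjusted p = 0.0138) and without Rag2-/-γc-/- library 10 or 11 (edgeR adjusted p 0.0192 and 0.0481), with a range of 0.00336 to 0.655 over its alternatives. The signalling chemerin receptor Cmklr1 averaged 2.03 ± 1.25 CPM in Rag2-/-γc-/- libraries and 1.20 ± 1.00 CPM in C57BL/6J libraries (SD, n = 5 each), and the formyl peptide receptors Fpr1 and Fpr2 were at or under 1.04 CPM in all libraries.

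C57BL/6J library 6 had the lowest value of all 10 libraries in 13 of the 32 genes with counts in every library, among them Ccl2, Ccl3, Ccl4, Ccl6, Ccl9, Cxcl2, Cxcl10, C5ar1 and C3ar1. Ccl7 and Cmklr1, outside these 32, were at 0 CPM in library 6 alone. In the same library 10 of 13 macrophage and monocyte markers were at their lowest, the exceptions being Cd68 (189 CPM), Timd4 (7.47 CPM) and Ly6c2 (0.428 CPM). The complement genes C1qa, C1qb and C1qc, defining genes of tissue macrophages, summed to 123, 236, 148, 70.6 and 106 CPM in Rag2-/-γc-/- libraries 7 to 11, against 169, 60.9, 162, 73.0 and 17.1 CPM in C57BL/6J libraries 1, 3, 4, 5 and 6. All 13 macrophage and monocyte markers summed to 383 to 654 CPM in Rag2-/-γc-/- libraries and 235 to 441 CPM in C57BL/6J libraries. Between groups, Csf1r and Marco of this list were higher in Rag2-/-γc-/- libraries (edgeR adjusted p 0.0341 and 0.0453), Timd4 was lower (edgeR adjusted p 0.0301), and the other 10 did not pass. Their part in the chemokine values was not tested. Without library 6 the log2 fold changes were 1.72 for Ccl3, 1.55 for Ccl4, 0.99 for Cxcl10 and 0.87 for C3ar1.

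The wider family and its signalling chain were covered by 2 lists chosen with earlier results known. Of 42 other chemokine and chemoattractant genes, 13 were tested, of which 2 passed the threshold (15.4%, against 7.79% of all tested genes in either direction), and 33 of the 42 averaged under 1 CPM. C5ar2, the other C5a receptor (listed under its older symbol Gpr77), rose by 1.38 ± 0.37 on a log2 scale (SE; edgeR adjusted p = 0.0424) at a mean of 0.558 CPM in Rag2-/-γc-/- libraries and 0.213 CPM in C57BL/6J libraries, a call lost without any 1 library except Rag2-/-γc-/- 7 or 10 (adjusted p up to 0.114). Of 38 genes of receptor signalling 36 were tested, of which 2 rose and 1 fell (8.33%). The G protein subunit gene Gnb4 had 0.661, 1.11, 1.38, 0.915 and 1.32 CPM in Rag2-/-γc-/- libraries 7 to 11, against 12.2, 13.7, 14.4, 14.2 and 19.9 CPM in C57BL/6J libraries 1, 3, 4, 5 and 6. The groups lay far apart (log2 fold change -3.80 ± 0.22, SE; edgeR adjusted p = 1.18e-05), with the other G protein subunits on the list not past the threshold. Rgs2, which shortens G protein signals, rose by 0.50 ± 0.12 (SE; edgeR adjusted p = 0.0292). The focal adhesion kinase relative Ptk2b rose by 0.75 ± 0.19 (SE; edgeR adjusted p = 0.0352). The Rgs2 call was lost without any 1 of Rag2-/-γc-/- 8 and 9 and C57BL/6J 3, 5 and 6 (adjusted p up to 0.0789), and that of Ptk2b without any 1 of Rag2-/-γc-/- 7, 8 and 9 and C57BL/6J 4, 5 and 6 (adjusted p up to 0.0929).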

How the data were processed

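Poly(A) RNA of GFP+ splenocytes was sequenced as single reads, per the labels' protocols. The authors deposited expected counts for Ensembl genes of GRCm38; such counts share out a read that maps to more than 1 gene. Per the submitters' processing notes, the tools were cutadapt 1.11, STAR 2.5.2a, RSEM 1.2.30 and edgeR, with no settings or annotation stated. Expected counts were rounded here. All 20 pairs of libraries within a group differed beyond counting noise (chi-square per degree of freedom of at least 8.64).

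Groups were compared with edgeR 4.0.16 under R 4.3.3 by quasi-likelihood F tests with TMM, after filterByExpr (minimum count 10, minimum total 15). The model held group alone, and p-values were adjusted by Benjamini-Hochberg across all 13967 genes kept, with calls at 0.05. SEs are the unshrunken coefficient over the square root of F. The test was checked on simulated counts. Exon lengths came from GENCODE M21. Alternatives were RLE and upper-quartile factors, DESeq2 1.42.0, limma 3.58.1 voom with sample quality weights, no filter, 1 CPM in 5 libraries, and leaving out each library, or libraries 10 and 11, or 7, 8 and 9. Genes past the threshold, without overlap or averaging at least 50 CPM are given in every library, and up to 6 called genes per related list are named. The genes and lists were chosen with earlier results of these data known. A called gene among the other chemokine and chemoattractant genes is not reported here.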

Additional observations from a re-analysis of the deposited data

Results flagged for a closer look

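In 9 cases a library stood apart from the other 4 of its group, by a gap of more than 0.71 of the group's range (Dixon's ratio), out of 78 groups of values examined. For normally distributed values, chance flags about 1 in 20 groups. That condition was not tested for these CPM, some of which are near 0, so the share flagged gives no measure of an excess. Among Rag2-/-γc-/- recipients, library 7 was highest for Ccl3 (8.75 CPM, the others 4.08 to 5.03), for Cxcl1 (0.407 CPM, the others 0.0362 to 0.126) and for Cxcl2 (11.8 CPM, the others 0.784 to 3.12). Among C57BL/6J recipients, library 1 was highest for the lymphocyte receptor genes Ccr7 (7.09 CPM, the others 0.087 to 1.11), Cxcr5 (7.85 CPM, the others 0.5 to 1.84) and S1pr1 (7.36 CPM, the others 0.131 to 1.16). C57BL/6J library 4 was highest for Cxcl1 (0.0761 CPM, the others at 0) and for Cxcl2 (1.29 CPM, the others 0.101 to 0.42), and library 3 for Ccl17 (1.78 CPM, the others 0.304 to 0.641). The Cxcl1 value of library 4 is 3 counts, which lies within the counting error allowed for a level of 0.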

How the results depend on the processing

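No paired analysis was possible because the groups share no replicate numbers. RLE and upper-quartile factors called the same 10 genes of the set. DESeq2 called these and Ccl6 and Ccrl2, and edgeR without a filter called these and Ccr7 and S1pr1, 6 higher and 6 lower. Limma-voom lost Ccl5 and added C5ar1, Ccl2, Ccl6, Ccl9, Ccr3, Ccrl2 and Cx3cl1 as higher and Ccr2 as lower. EdgeR without Rag2-/-γc-/- libraries 10 and 11 also lost Ccl5. It added Ccl6, Ccl17, Ccr1, Ccrl2 and Cx3cl1 as higher and Ccr2 and S1pr1 as lower. Over all genes, higher and lower calls were 1155 and 803 in DESeq2, 3218 and 3306 in limma-voom with sample quality weights, 2518 and 2786 without Rag2-/-γc-/- libraries 10 and 11, 127 and 146 without 7, 8 and 9, and 303 to 1323 and 275 to 1078 when 1 library was left out. For the 39 genes, limma-voom called 13 higher, the filter of 1 CPM in 5 libraries 2 lower, the set without 10 and 11 11 higher, the set without 7, 8 and 9 0 higher and 1 lower, and leaving out 1 library 2 to 9 higher and 1 to 6 lower, of 33 to 35 tested. For the other chemokine and chemoattractant genes, higher and lower calls were 2 and 2 in DESeq2, 5 and 3 in limma-voom, 0 and 2 without a filter, 0 higher with 1 CPM in 5 libraries, 2 and 2 without 10 and 11, 0 and 0 without 7, 8 and 9 (edgeR; 2 and 0 at an unadjusted p under 0.05), and 0 to 2 and 0 to 2 when 1 library was left out. For receptor signalling they were 4 and 2 in DESeq2, 15 and 7 in limma-voom, 12 and 6 without 10 and 11, 1 higher without 7, 8 and 9, and 0 to 6 and 1 to 4 when 1 library was left out. No called gene changed sign. Log2 fold changes that did, none past the threshold, were, without 7, 8 and 9, -0.030 for Ccl6, -0.12 for Ccl9, -1.46 for Ccl17, -0.99 for Ccl22, -0.26 for Cxcl16, -0.19 for Cx3cl1, -0.083 for Ccr1, -0.28 for Cxcr2 and 0.13 for Cxcr3. Without 10 and 11 they were 0.011 for Ccr9, 0.12 for Cxcr4 and -0.34 for Fpr1. In limma-voom they were 0.73 for Ccr6, 0.12 for Cxcr4 and -0.10 for Fpr1. Cxcl16 was at -0.016 with upper-quartile factors and -0.010 without a filter. Leaving out 1 library gave ranges that crossed 0, at -0.19 to 0.40 for Ccl22, -0.10 to 0.079 for Cxcl16, -0.89 to 0.28 for Ccr6, -0.021 to 0.85 for Cxcr2, -0.17 to 0.058 for Cxcr3 and -0.36 to 0.23 for Fpr1. The cause of these changes was not tested. Genes under about 1 CPM rest on few counts.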
